A study of Mus musculus with 2 samples.

Results

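Cxcr4, Cxcl12 and Ackr3 are the 3 genes of the CXCL12 chemokine system followed here across the cell types of the newborn mouse cerebellum. They were found by exact symbol, which gave 3 of the 32285 gene rows, with 1 row for each. The data were 2 droplet-based single-cell RNA libraries, made from lobules III-IV at postnatal day 1 (P1) after papain dissociation with 10x Genomics 3' chemistry. The mutant library came from Cxcr4+/1013 mice, which carry 1 truncated and 1 normal Cxcr4 allele, and the control library from Cxcr4+/+ mice. The genotype label was followed for the mutant, although the extraction protocol writes it as Cxcr4+/-, and which of the 2 is meant was not settled by the counts. Both carry the strain label B6.129S2-Cxcr4tm1.1Bala, and how many animals were pooled for a library is not stated in the labels. The series concerns the developing brain in a CXCR4-linked immunodeficiency. The comparison here asked in which cells the ligand and its receptors were found, and at which levels, in the 2 genotypes. With 1 library per genotype there was no replicate, so that no test was run and every difference is one between 2 libraries. All 95% intervals cover counting error only.

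CXCL12 is a secreted chemokine, and CXCR4 is its Gi-coupled signalling receptor. ACKR3 is an atypical receptor that binds and internalises CXCL12 without G protein signalling and so lowers the amount of free ligand. In the developing cerebellum the meninges release CXCL12, and granule cell progenitors that carry CXCR4 are held beneath the surface in the external granule layer until they leave the cell cycle and migrate inward. The 1013 allele encodes a CXCR4 that lacks the end of its cytoplasmic tail, which is normally needed to switch off and internalise the receptor, and changes of this kind cause WHIM syndrome in humans.

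Cxcr4 (ENSMUSG00000045382) lies on the minus strand of chromosome 1 at 128588199 to 128592293, Cxcl12 (ENSMUSG00000061353) on the plus strand of chromosome 6 at 117168535 to 117181367, and Ackr3 (ENSMUSG00000044337) on the plus strand of chromosome 1 at 90203980 to 90216751, in GRCm38. The sequence that encodes the tail end of CXCR4 is shown because it is the part of the transcript in which the genotypes differ. Below are the last 90 coding bases of Cxcr4-201, which lie in exon 2 of 2 (chr1:128588843-128588932, minus strand), in the reference form without the 1013 change and with the stop codon in capitals.
Cxcr4 coding end: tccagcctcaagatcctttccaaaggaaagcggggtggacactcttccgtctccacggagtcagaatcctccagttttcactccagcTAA
Another 644 bases of 3' untranslated region follow the stop codon in this transcript. Reads in 3' libraries start at the polyA end and were summed per gene, so the counts of Cxcr4 hold RNA of both alleles and neither check nor distinguish the genotype labels.

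The promoters of the 3 genes are shown next, as the DNA beside which their cell-type patterns can be read. Each is 300 bases from RefSeq in GRCm38.p6, with 250 bases before the annotated start and 50 after it, written 5′ to 3′ on the strand of the gene. Capitals mark 3 motifs searched on both strands, the TATA motif TATAAA, the GC box GGGCGG and the NRF1 palindrome, which is GCGCA followed by its reverse complement TGCGC. The windows are chr1:128592250-128592549 (minus strand) for Cxcr4, chr6:117168285-117168584 (plus strand) for Cxcl12 and chr1:90203730-90204029 (plus strand) for Ackr3.
Cxcr4: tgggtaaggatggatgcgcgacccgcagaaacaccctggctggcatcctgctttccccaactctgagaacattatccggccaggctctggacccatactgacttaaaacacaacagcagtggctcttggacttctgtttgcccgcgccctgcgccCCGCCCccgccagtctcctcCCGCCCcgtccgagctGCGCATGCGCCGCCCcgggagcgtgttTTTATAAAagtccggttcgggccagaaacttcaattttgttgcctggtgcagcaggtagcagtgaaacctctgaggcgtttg
Cxcl12: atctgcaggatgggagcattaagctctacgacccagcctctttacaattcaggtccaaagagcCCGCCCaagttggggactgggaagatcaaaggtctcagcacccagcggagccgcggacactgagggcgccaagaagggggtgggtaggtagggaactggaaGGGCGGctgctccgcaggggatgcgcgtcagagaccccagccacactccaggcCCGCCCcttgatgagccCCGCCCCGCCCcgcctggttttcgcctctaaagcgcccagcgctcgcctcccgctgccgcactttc
Ackr3: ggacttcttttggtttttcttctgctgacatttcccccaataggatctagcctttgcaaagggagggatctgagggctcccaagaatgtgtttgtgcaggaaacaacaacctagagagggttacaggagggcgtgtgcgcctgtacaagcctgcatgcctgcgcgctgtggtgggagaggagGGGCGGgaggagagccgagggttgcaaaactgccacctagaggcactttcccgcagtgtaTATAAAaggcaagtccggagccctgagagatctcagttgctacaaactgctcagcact
The Cxcr4 window held a TATAAA at position -30 from the start, with an overlapping match on the opposite strand, and the Ackr3 window held TATAAA at position -8. No TATAAA was in the Cxcl12 window, and 13.6% of 32851 RefSeq promoter windows held it. GGGCGG was in 35.7% of the windows and was found 3 times in Cxcr4, 5 times in Cxcl12 and 1 time in Ackr3. The NRF1 palindrome was in 0.971% of the windows and in the Cxcr4 window, where it overlapped a GGGCGG. The E-box CAGCTG, a form bound by ATOH1-type factors, was in 16.3% of the windows and in none of these 3. GC content was 59.3%, 64.7% and 54% for Cxcr4, Cxcl12 and Ackr3, against a median of 52.7% over all windows. A motif match is a description of these windows and not a binding site.

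The analysis kept 8194 mutant barcodes with 126145234 unique molecular identifiers (UMIs) and 8353 control barcodes with 114764187 UMIs, each with at least 500 genes and at most 10% mitochondrial UMIs. Median depth was 13557.5 UMIs per mutant cell and 12101 per control cell, and 18 kept barcodes occurred in both libraries. Cells were assigned to 22 classes by UMIs of marker genes, and class names below stand for these gates. Exactly 1 gate was passed by 73.4% of mutant and 64.8% of control cells, and cells that passed several gates (7.81% and 7.29%) or none (18.8% and 27.9%) were left out of the classes. The cells without a gate were shallow, with a median of 4686.5 UMIs in the mutant and 2633 in the control library. Markers that no gate used were highest in the matching class for Pcp4, Foxp2 and Lhx1 (Purkinje cells), Slc32a1 and Slc6a5 (inhibitory interneurons), Hopx, Aldh1l1 and Fabp7 (Bergmann glia), Olig2, Tekt1 and Pifo (oligodendrocyte lineage and ependymal cells), Col3a1 (fibroblasts) and Mfap4 (Atoh1-positive cells). The microglial genes Trem2 and P2ry12 were also present in border macrophages, at 369 and 238 CPM in the mutant and 336 and 224 CPM in the control library. The microglia gate held 1208 and 514 CPM of them in 5 mutant cells and 1243 and 456 CPM in 9 control cells. Whether the border macrophage gate also held microglia was not tested. Exceptions were Zic1, Barhl1, Otx2 and Lhx5, which peaked in other neuronal gates. Levels are given as CPM, the UMIs of a gene scaled to the total UMIs of its class. Because transcripts differ in length and 3' sites, levels are compared between classes and libraries and not between genes.

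Over all kept cells, Cxcl12 was the member that differed most between the libraries. Cxcl12 stood at 30.4 CPM (95% interval 29.4 to 31.4; 3832 UMIs) in the mutant library, against 81.4 CPM (79.8 to 83.1; 9341 UMIs) in the control library, a ratio of 0.373 (0.359 to 0.388). Cxcr4 stood at 24.1 CPM (23.2 to 24.96) in the mutant and 27.1 CPM (26.2 to 28.1) in the control library, a ratio of 0.888 (0.844 to 0.934). Ackr3 stood at 7.52 CPM (7.05 to 8.02) in the mutant and 11.1 CPM (10.5 to 11.7) in the control library, a ratio of 0.679 (0.624 to 0.739). The share of cells with a Cxcl12 UMI was nearly equal, at 14.4% of mutant and 14.3% of control cells. A gene is counted as past the fold when it has at least 50 UMIs over both libraries and differs at least 1.5-fold. By this rule 1 of the 3 members, Cxcl12, was lower in the mutant library, where 6.92% of all genes measured were lower and 2.19% higher. A level over a whole library sums classes whose cell numbers differed between the libraries, and in such a sum fewer cells of a type and less RNA per cell cannot be told apart, so levels within classes follow.

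Cxcl12, the ligand, had its highest level in fibroblasts, gated on type I collagen with Dcn, Lum or Foxc1. Fibroblasts held 2137 CPM (2003 to 2279) of Cxcl12 in the mutant library and 2399 CPM (2341 to 2459) in the control library. Nearly every fibroblast carried it, 100% of 28 mutant and 99.4% of 171 control cells. The median was 34 Cxcl12 UMIs per mutant fibroblast, with quartiles of 22.25 and 44.5 and a maximum of 85. The median was 39 per control fibroblast, with quartiles of 26.5 and 48 and a maximum of 89. The distributions over cells overlapped along most of their length, and the ratio between the libraries was 0.891 (0.831 to 0.954). Trimmed-mean (TMM) scaling gave 0.822, a scaling that lowers the median log2 ratio of all fibroblast genes by 0.12. Among genes measured in fibroblasts, 9.98% were past 1.5-fold higher and 8.96% past 1.5-fold lower in the mutant, and 52.7% of those past the fold were higher, against 35.0% with TMM scaling. Cxcl12 itself was not past the fold. The Bergmann glia markers Fabp7, Aldh1l1 and Hopx stood at 911, 36.5 and 22.8 CPM in mutant and 126, 10.8 and 5.58 CPM in control fibroblasts. Col3a1 stood at 3720 CPM in the mutant and 4097 CPM in the control library. The part of RNA of other cells in the Cxcl12 ratio was not tested.

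Fibroblasts differed in number more than in Cxcl12 per cell. The mutant library held 28 and the control library 171, and they gave 24.4% of the mutant and 69.1% of the control library's Cxcl12 UMIs. By the genes that mark meningeal layers, 27 mutant and 163 control fibroblasts had most of their layer UMIs in pial genes (S100a6, Ngfr and Lama1), and in these Cxcl12 stood at 2293 CPM in the mutant and 2421 CPM in the control library, a ratio of 0.947 (0.883 to 1.02). Only 1 mutant and 4 control fibroblasts had most of them in the arachnoid genes Aldh1a2 and Crabp2. Whether the gap in fibroblast number came from the genotype, the dissection of the meninges or the dissociation cannot be told apart with 1 library each.

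Granule neurons also held Cxcl12. The later granule neurons, which have Neurod1, Pax6 and Rbfox3 but no Cntn2, Nhlh1 or mitotic transcripts, held 109 CPM (98.3 to 120; 386 UMIs) in the mutant and 113 CPM (101 to 126; 328 UMIs) in the control library. Premigratory granule neurons, which have Cntn2 or Nhlh1, held 66.5 CPM (62.9 to 70.2; 1283 UMIs) in the mutant and 63.8 CPM (59.6 to 68.3; 836 UMIs) in the control library. Neither differed beyond counting error, with ratios of 0.961 (0.827 to 1.12) in later and 1.04 (0.954 to 1.14) in premigratory neurons, which became 1.13 and 0.971 with cells of several gates kept. Cxcl12 was detected in 52.4% of mutant and 54.7% of control later granule neurons. Premigratory and later granule neurons together with fibroblasts carried most of the Cxcl12, and the premigratory cells alone gave 33.5% of the mutant and 8.95% of the control library's Cxcl12 UMIs.

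Purkinje cells served as the class with little of these genes. Whether their few UMIs were free RNA or low expression was not tested. Cxcl12 in Purkinje cells was 0.638 CPM (0.275 to 1.26) in the mutant and 0.850 CPM (0.424 to 1.52) in the control library, and 2.198% of mutant and 2.74% of control Purkinje cells had a UMI at median depths of 36149 and 35306. The later granule neurons stood 171-fold above Purkinje cells in the mutant and 133-fold above them in the control library. In 1 random draw of 3000 UMIs from every cell, 20.9% of mutant and 24.9% of control later granule neurons had a Cxcl12 UMI. This left out 13 mutant and 18 control cells shallower than that. The same draw gave 0.278% of mutant and 0.258% of control Purkinje cells. Averaged over repeated draws, the shares of later granule neurons were 25.2% in the mutant and 25.9% in the control library. Granule neurons held little of the fibroblast collagen Col3a1 beside their Cxcl12. There were 129 Cxcl12 UMIs for each Col3a1 UMI in mutant and 36.4 in control later granule neurons, but 0.575 in mutant and 0.586 in control fibroblasts. Purkinje cells stood at 1.33 in the mutant, from 8 Cxcl12 and 6 Col3a1 UMIs, and 0.579 in the control library. The part of free RNA in these values was not tested.

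Unipolar brush and Atoh1-positive cells held less Cxcl12 than the granule neurons in both libraries. Unipolar brush cells, gated on Eomes and Lmx1a, held 11.0 CPM (8.41 to 14.2) in the mutant and 12.4 CPM (8.99 to 16.6) in the control library. Atoh1-positive cells held 8.60 CPM (7.32 to 10.0; 161 UMIs) in the mutant and 5.56 CPM (4.40 to 6.94; 78 UMIs) in the control library. Endothelial cells held 76.0 CPM (55.0 to 102; 43 UMIs in 23 cells) in the mutant and 14.0 CPM (7.44 to 23.9; 13 UMIs in 42 cells) in the control library, and 1 cell gave 37.2% of the mutant and 30.8% of the control UMIs. Mural cells, with 8 UMIs in the mutant and 12 in the control library, stood at 64.8 CPM (28.0 to 128) and 38.6 CPM (19.95 to 67.5). Inhibitory interneurons, Bergmann glia, ependymal cells, oligodendrocyte lineage cells, dividing astroglia and the Lhx9 Meis2 glutamatergic neurons were all between 0.550 and 3.58 CPM in either library. Among classes of 20 cells or more in both libraries, which leaves out the mural cells, the control order ran from fibroblasts to later granule, premigratory granule and endothelial cells with intervals that did not overlap. In the mutant library the endothelial interval overlapped those of both granule classes, and unipolar brush and Atoh1-positive cells came after these. In the control library unipolar brush and Atoh1-positive cells also came after both granule classes, but the interval of unipolar brush cells overlapped that of endothelial cells.

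**Figure D1:**
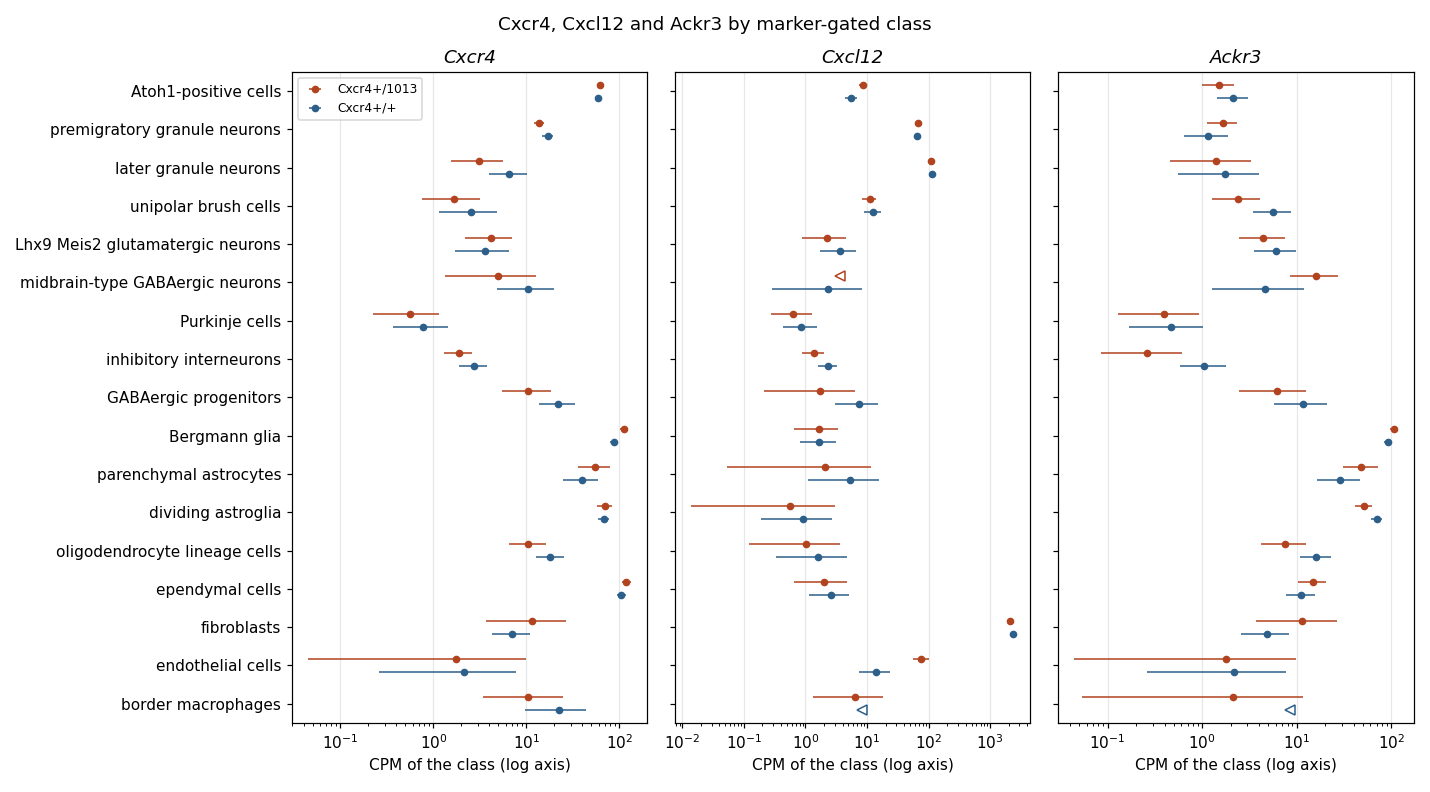
Level of Cxcr4, Cxcl12 and Ackr3 in each gated class that held 20 cells or more in both libraries, in CPM of the class on a log axis; points are Cxcr4+/1013 (red, upper of each pair) and Cxcr4+/+ (blue), bars are exact Poisson 95% intervals, and open triangles mark the limit that 3 counts would give where no UMI was found. Cxcl12 peaked in fibroblasts (2137 CPM in the mutant and 2399 CPM in the control library), Cxcr4 in ependymal cells and Bergmann glia, and Ackr3 in Bergmann glia (105 CPM in the mutant and 91.8 CPM in the control library).

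Cxcr4, the signalling receptor, was highest in ependymal cells and astroglia and next in the granule cell progenitors, among classes with at least 20 cells. Ependymal cells held 119 CPM (106 to 133; 299 UMIs) of Cxcr4 in the mutant and 105 CPM (94.2 to 117; 323 UMIs) in the control library. Bergmann glia, the astroglia whose fibres guide granule neurons inward, held 112 CPM (103 to 123; 477 UMIs) in the mutant and 87.6 CPM (80.2 to 95.4; 519 UMIs) in the control library. The level in ependymal cells was 1.06 times (0.915 to 1.23) that in Bergmann glia in the mutant and 1.20 times (1.04 to 1.38) in the control library, so that the control interval of the ratio lay above 1. Cxcr4 in dividing astroglia was 69.9 CPM (58.2 to 83.1) in the mutant and 68.1 CPM (59.5 to 77.7) in the control library. Atoh1-positive cells, the granule cell progenitors, held 61.7 CPM (58.2 to 65.3; 1155 UMIs) in the mutant and 59.4 CPM (55.5 to 63.6; 833 UMIs) in the control library. Parenchymal astrocytes held 54.5 CPM (35.6 to 79.9) in the mutant and 39.4 CPM (24.7 to 59.7) in the control library. Dividing astroglia, Atoh1-positive cells and parenchymal astrocytes overlapped in that order in both libraries, below Bergmann glia. In the mutant library they stood above the other classes of that size. In the control library the interval of parenchymal astrocytes overlapped those of border macrophages (9.68 to 44.2), GABAergic progenitors (13.7 to 33.8) and oligodendrocyte lineage cells (12.6 to 25.4). Per UMI, Bergmann glia held 1.82-fold (1.63 to 2.03) the Cxcr4 of Atoh1-positive cells in the mutant and 1.47-fold (1.32 to 1.65) in the control library. Atoh1-positive cells, 955 in the mutant and 790 in the control library, gave 38.02% of the mutant and 26.8% of the control library's Cxcr4 UMIs.

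Between the libraries Cxcr4 was higher in mutant Bergmann glia, though not past the fold. The ratio was 1.28 (1.13 to 1.46), and it was above 1 in 10 of 10 alternative settings, which all reuse the same 2 libraries. It was 1.39 (1.16 to 1.67) in female cells and 1.14 (0.939 to 1.38) in male cells, where the interval includes 1. A Cxcr4 UMI was found in 71.0% (65.7 to 76.0) of 314 mutant and 60.4% (55.8 to 64.9) of 467 control Bergmann glia. Their median depths were 13527 and 13053 UMIs. Thinned to 3000 UMIs per cell in 1 random draw, the shares were 27.9% in the mutant and 21.8% in the control library. Of all genes measured in Bergmann glia 4.9% were past 1.5-fold higher and 2.41% lower in the mutant. Of those past the fold 67.1% were higher, against 45.7% with TMM scaling. Cxcr4 in Atoh1-positive cells stood at a ratio of 1.04 (0.949 to 1.14), in ependymal cells at 1.13 (0.963 to 1.33) and in dividing astroglia at 1.03 (0.818 to 1.28), all within counting error. The direction turned with the setting in these 3 classes, to 0.995 in Atoh1-positive cells with every gate raised by 1 UMI, to 0.947 in female ependymal cells and to 0.706 in dividing astroglia when cells of several gates were kept.

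Neurons after the progenitor stage held little Cxcr4. Premigratory granule neurons were at 13.8 CPM (12.2 to 15.5) in the mutant and 16.9 CPM (14.8 to 19.3) in the control library, a ratio of 0.813 (0.678 to 0.976). Later granule neurons had 11 UMIs, or 3.104 CPM (1.55 to 5.55), in the mutant and 19 UMIs, or 6.57 CPM (3.95 to 10.3), in the control library. Unipolar brush cells, inhibitory interneurons and the Lhx9 Meis2 neurons lay between 1.65 and 4.12 CPM in either library. Purkinje cells, at 0.558 CPM (0.224 to 1.15; 7 UMIs) in the mutant and 0.773 CPM (0.371 to 1.42; 10 UMIs) in the control library, had the lowest values among classes of that size in both. Cxcr4 in Atoh1-positive cells was 110-fold (53.4 to 275) above Purkinje cells in the mutant and 76.9-fold (41.6 to 161) above them in the control library. GABAergic progenitors, the Ptf1a and Kirrel2 cells, held 10.5 CPM (5.43 to 18.3; 12 UMIs) in the mutant and 22.1 CPM (13.7 to 33.8; 21 UMIs) in the control library. Oligodendrocyte lineage cells held 10.5 CPM (6.52 to 16.1) in the mutant and 18.2 CPM (12.6 to 25.4) in the control library.

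The highest Cxcr4 level of all was in the lymphocyte or granulocyte gate, which held few cells. The lymphocyte or granulocyte gate held 4 mutant cells with 8 Cxcr4 UMIs, or 518 CPM (223 to 1020), and 12 control cells with 20 UMIs, or 354 CPM (216 to 547). Border macrophages held 10.5 CPM (5 UMIs) in the mutant and 22.4 CPM (8 UMIs) in the control library. Cell numbers this small allow no comparison of the libraries. In fibroblasts Cxcr4 had 5 UMIs in the mutant, 80% of them from 1 cell, and 19 UMIs in the control library.

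Ackr3, the scavenging receptor, was an astroglial gene in these libraries. Bergmann glia held 105 CPM (95.8 to 116; 447 UMIs) in the mutant and 91.8 CPM (84.2 to 99.8; 544 UMIs) in the control library, and the gene was detected in 56.7% of mutant and 53.1% of control Bergmann glia with up to 15 UMIs in a mutant and 12 in a control cell. They gave 47.1% of the mutant and 42.8% of the control library's Ackr3 UMIs. Bergmann glia stood apart from the next class in both libraries. Dividing astroglia held 51.2 CPM (41.3 to 62.7) in the mutant and 70.3 CPM (61.5 to 80.0) in the control library, and parenchymal astrocytes 48.2 CPM (30.6 to 72.4) in the mutant and 28.7 CPM (16.4 to 46.6) in the control library. Ackr3 in Bergmann glia was 2.06-fold (1.64 to 2.60) that of dividing astroglia in the mutant and 1.31-fold (1.12 to 1.53) in the control library.

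Ependymal cells, whose Cxcr4 interval overlapped that of Bergmann glia, were lower than Bergmann glia for Ackr3. They held 14.7 CPM (10.4 to 20.3) of Ackr3 in the mutant and 11.1 CPM (7.68 to 15.5) in the control library, 0.140 times the level of Bergmann glia in the mutant and 0.121 times it in the control library. Granule lineage cells held little Ackr3. Ackr3 in Atoh1-positive cells was 1.495 CPM (0.994 to 2.16; 28 UMIs) in the mutant and 2.14 CPM (1.44 to 3.06; 30 UMIs) in the control library, and Purkinje cells were at 0.399 CPM (5 UMIs) in the mutant and 0.464 CPM (6 UMIs) in the control library. The level in Bergmann glia was 70.4-fold (48.1 to 107) that of Atoh1-positive cells in the mutant and 42.9-fold (29.7 to 64.2) in the control library. Thinned to 3000 UMIs, Atoh1-positive cells had an Ackr3 UMI in 0.396% of mutant and 0.520% of control cells on average over repeated draws. Oligodendrocyte lineage cells held 7.52 CPM (4.21 to 12.4; 15 UMIs) in the mutant and 16.0 CPM (10.8 to 22.9; 30 UMIs) in the control library, and midbrain-type GABAergic neurons 16.1 CPM (8.55 to 27.5) in the mutant and 4.65 CPM (1.27 to 11.9) in the control library, with 53.8% of the mutant and 50% of the control UMIs from 1 cell.

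Between the libraries Ackr3 was close in Bergmann glia, at a ratio of 1.15 (1.01 to 1.30). The direction differed by the sex of the cells, read from Xist and Y-linked genes, with 0.916 (0.756 to 1.11) in female and 1.34 (1.11 to 1.63) in male cells. In dividing astroglia the ratio was 0.728 (0.566 to 0.930), in ependymal cells 1.33 (0.812 to 2.18), with 0.983 in male cells, and in Atoh1-positive cells 0.699 (0.402 to 1.21). The whole-library ratio of 0.679 was lower than the ratio in Bergmann glia, and the mutant library held fewer Bergmann glia (314 against 467) and dividing astroglia (89 against 164).

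Across classes, 18 values of a member in a class had at least 50 UMIs over both libraries, and 4 of them were past 1.5-fold. Cxcl12 was higher in mutant Atoh1-positive cells, at a ratio of 1.55 (1.17 to 2.05), where 3.52% of all genes measured were past the fold higher and 1.44% lower. That ratio was 1.02 with every gate raised by 1 UMI and 0.988 with cells of several gates kept. Cxcl12 was also higher in mutant endothelial cells, at 5.43 (2.87 to 11.0), where 9.19% of genes were past the fold higher and 6.03% lower. The endothelial ratio rested on 8 mutant and 9 control cells with a UMI and turned to 0.811 in female cells and 0.747 with cells of several gates kept. Cxcr4 was lower in mutant oligodendrocyte lineage cells, at 0.580 (0.320 to 1.03), where 2.78% of genes were lower, and the ratio was 0.968 in female and 0.305 in male cells. Cxcl12 was lower in mutant inhibitory interneurons, at 0.580 (0.331 to 1.01), where 1.91% of genes were lower, from 26 UMIs in the mutant and 31 in the control library, and the ratio was 0.343 in female cells. The remaining 14 values lay within 1.5-fold.

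**Figure D2:**
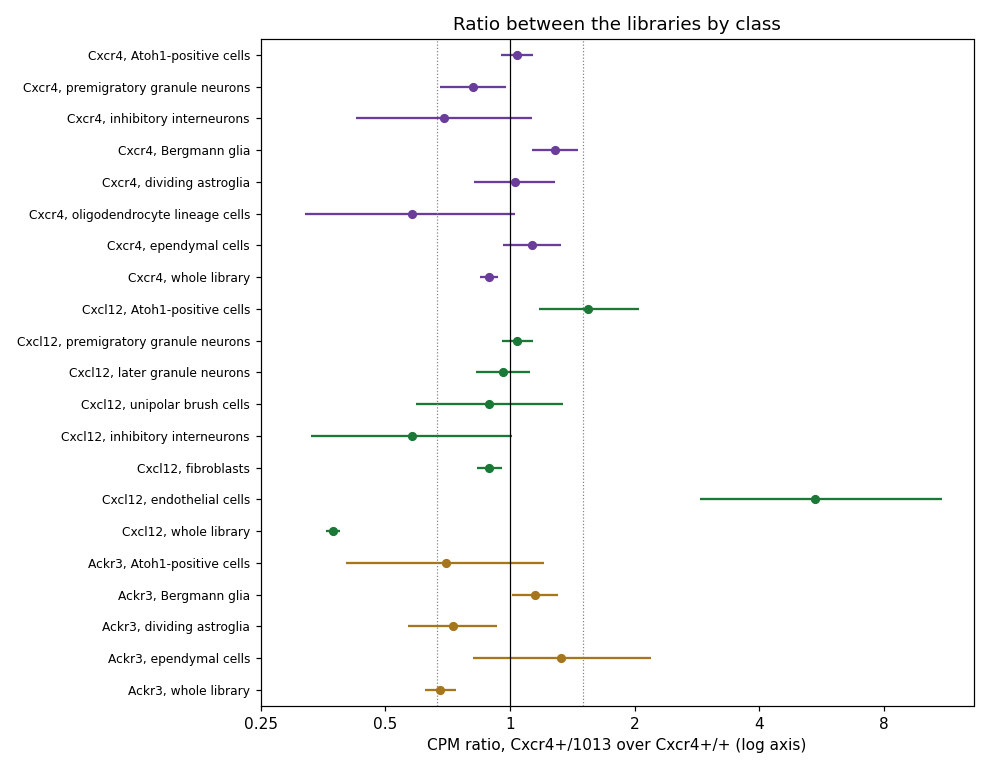
Ratio of the mutant to the control library for each member in the classes and the whole library where it had at least 50 UMIs over both libraries, on a log axis with exact conditional 95% intervals; the solid line at 1 marks equal levels and the dotted lines a difference of 1.5-fold. Most points lie between the dotted lines, Cxcl12 in the whole library stands farthest left at 0.373, and Cxcl12 in endothelial cells farthest right at 5.43.

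Within Atoh1-positive cells, Cxcr4 was present in every cycle state, and the level of Cxcl12 was highest in cells without mitotic transcripts. States were set by the summed UMIs of Mki67 and Top2a, genes of G2 and mitosis, as 0, 1 to 4 and 5 or more. The mutant library had 128, 221 and 606 cells in these states and the control library 123, 175 and 492. Cxcr4 stood at 46.7 CPM (37.1 to 57.9), 57.5 CPM (49.5 to 66.3) and 64.6 CPM (60.4 to 69.0) with rising mitotic UMIs in the mutant library. It stood at 38.6 CPM (29.2 to 50.2), 50.8 CPM (42.4 to 60.5) and 64.6 CPM (59.7 to 69.7) in the control library. The level with 5 or more mitotic UMIs was 1.38-fold (1.10 to 1.76) that with none in the mutant and 1.67-fold (1.27 to 2.24) in the control library. In the mutant library the ratio was 3.18 in female and 1.13 in male cells, and 0.941 with an Atoh1 minimum of 2 UMIs. Depth moved with state, with medians of 13724, 14727 and 21301.5 UMIs in the mutant and 11904, 13853 and 19799.5 in the control library. Before thinning, the shares of cells with Cxcr4 were 39.1%, 52.0% and 70.5% in the mutant and 30.9%, 46.9% and 65.0% in the control library. In 1 random draw of 3000 UMIs per cell they were 10.9%, 14.1% and 17.8% in the mutant and 13.9%, 15.5% and 17.5% in the control library. A single draw is uncertain. Over all Atoh1-positive cells it gave 18.6% in the mutant and 12.9% in the control library, against averages of 16.4% and 15.4% over repeated draws. The order of the libraries within a state was therefore not read from the draw.

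The genotypes differed little in Cxcr4 once cells had 5 or more mitotic UMIs, at a ratio of 1.001 (0.903 to 1.11). The ratio was 1.21 (0.850 to 1.73) with 0 mitotic UMIs. Among finer ranges Cxcr4 in cells with 5 to 9 mitotic UMIs stood at 64.7 CPM (54.3 to 76.6; 122 cells) in the mutant and 40.5 CPM (30.4 to 52.8; 85 cells) in the control library, a ratio of 1.60 (1.16 to 2.24). With 10 to 19 it stood at 52.2 CPM in the mutant and 55.1 CPM in the control library, with 20 to 39 at 63.5 CPM in the mutant and 71.1 CPM in the control library, and with 40 or more at 68.4 CPM in the mutant and 70.8 CPM in the control library. The finer ranges were chosen after the levels had been seen, and the range of 5 to 9 was the one whose ratio had an interval above 1. Counted without a split of cells, 62.0% of mutant and 55.7% of control Atoh1-positive cells had a Cxcr4 UMI. Thinned to 3000 UMIs, the share averaged 16.4% in the mutant and 15.4% in the control library over repeated draws.

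**Figure D3:**
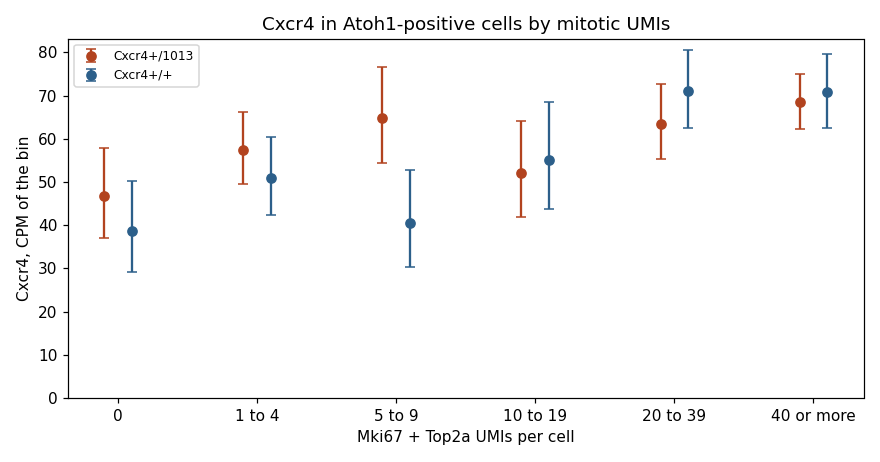
Cxcr4 in Atoh1-positive cells in 6 ranges of mitotic (Mki67 and Top2a) UMIs per cell, in CPM of the range, for Cxcr4+/1013 (red, left of each pair) and Cxcr4+/+ (blue), with exact Poisson 95% intervals. The libraries overlap except at 5 to 9 mitotic UMIs, where the mutant stands at 64.7 CPM and the control at 40.5 CPM.

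Cxcl12 in Atoh1-positive cells had its highest level where Mki67 and Top2a were absent, although only 36 of the 95 mutant and 20 of the 57 control cells with a Cxcl12 UMI were in that state. With 0, 1 to 4 and 5 or more mitotic UMIs it stood at 46.1 CPM (36.6 to 57.3; 81 UMIs), 7.68 CPM (25 UMIs) and 4.01 CPM (3.02 to 5.22; 55 UMIs) in the mutant library. It stood at 21.4 CPM (14.5 to 30.4; 31 UMIs), 6.004 CPM (15 UMIs) and 3.18 CPM (2.17 to 4.49; 32 UMIs) in the control library. The level with 5 or more was 0.0870 times (0.0606 to 0.124) that with none in the mutant and 0.149 times (0.0878 to 0.252) in the control library. The mutant value was 0.0575 without Scrublet doublets and 0.268 with an Atoh1 minimum of 2 UMIs. With 0 mitotic UMIs the mutant level was 2.16 times (1.41 to 3.37) the control level, and 1 cell gave 18.5% of these UMIs in the mutant and 16.1% in the control library. In this state transcripts of later granule stages also stood higher in the mutant, with Cntn2 at 78.5 CPM in the mutant and 46.2 CPM in the control library, Nhlh1 at 49.5 and 32.4 CPM and Neurod1 at 575 and 406 CPM, while fibroblast Col3a1 was at 0.569 CPM in the mutant and 2.07 CPM in the control library. The part of these in the Cxcl12 difference was not tested. Ackr3 stayed between 0.569 and 2.28 CPM in all 3 states of both libraries.

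Among Atoh1-positive cells with fewer than 5 mitotic UMIs, Cxcl12 stood at a higher level beside Cntn2, a contactin of granule neurons leaving the cycle, or Nhlh1, a neuronal transcription factor. Cells with a UMI of either held 30.0 CPM of Cxcl12 in the mutant and 18.8 CPM in the control library, and cells with neither 10.8 CPM in the mutant and 6.24 CPM in the control library. The level with either was 2.77-fold (1.75 to 4.53) that without in the mutant and 3.01-fold (1.56 to 6.10) in the control library. Cxcr4 with either stood at 0.825 times (0.644 to 1.06) its level without in the mutant and 1.02 times (0.754 to 1.38) in the control library, both within counting error.

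Across the gates of the granule lineage Cxcr4 and Cxcl12 ran in opposite directions. Cxcr4 in premigratory granule neurons was 0.223 times (0.195 to 0.255) its level in Atoh1-positive cells in the mutant and 0.285 times (0.245 to 0.331) in the control library, and Cxcl12 was 7.73-fold (6.56 to 9.16) higher in the mutant and 11.5-fold (9.09 to 14.7) higher in the control library. From premigratory to later granule neurons Cxcr4 stood at 0.225 times in the mutant and 0.388 times in the control library, and Cxcl12 at 1.64-fold (1.46 to 1.84) in the mutant and 1.78-fold (1.56 to 2.02) in the control library. The direction held in both libraries at each step between whole gates. The later gate leaves out cells with mitotic transcripts, whereas the premigratory gate keeps them. Premigratory cells with 0 mitotic UMIs held 3.36 CPM of Cxcr4 in the mutant and 5.43 CPM in the control library. Later granule neurons held 3.104 and 6.57 CPM, so against these cells no fall in both libraries was seen at the second step. The control value of 0.285 for Cxcr4 became 0.178 with a minimum of 2 UMIs for Cntn2 and Nhlh1. Even in later granule neurons the ligand remained well under its meningeal level, which was 19.6-fold (17.4 to 22.1) higher in fibroblasts in the mutant and 21.2-fold (18.9 to 23.7) in the control library.

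The same opposition appeared within premigratory granule neurons when they were split by mitotic UMIs, a split chosen after the data had been seen. With 0, 1 to 4 and 5 or more mitotic UMIs, Cxcr4 stood at 3.36, 15.8 and 33.6 CPM in the mutant and at 5.43, 14.8 and 42.1 CPM in the control library. Cxcl12 stood at 95.9, 62.9 and 9.61 CPM in the mutant and at 95.5, 46.7 and 8.70 CPM in the control library. Cells of this gate that carried mitotic transcripts were therefore high in Cxcr4 and low in Cxcl12 although they had Cntn2 or Nhlh1 and no Atoh1 UMI. With 5 or more mitotic UMIs Cxcr4 was 9.99-fold (7.02 to 14.5) its level with none in the mutant and 7.75-fold (5.44 to 11.3) in the control library. They still differed from Atoh1-positive cells with as many mitotic UMIs, with 0.519 times their Cxcr4 and 2.40-fold their Cxcl12 in the mutant, and 0.652 times and 2.74-fold in the control library. Cxcl12 with 0 mitotic UMIs was equal between the libraries, at a ratio of 1.004 (0.913 to 1.11). Split instead by UMIs of Cntn2 and Nhlh1 as 1, 2 to 4 and 5 to 9, Cxcr4 stood at 21.4, 12.6 and 6.91 CPM in the mutant and at 27.4, 12.4 and 6.05 CPM in the control library, while Cxcl12 differed less, at 75.04, 64.7 and 62.7 CPM in the mutant and 63.0, 66.3 and 63.5 CPM in the control library.

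**Figure D4:**
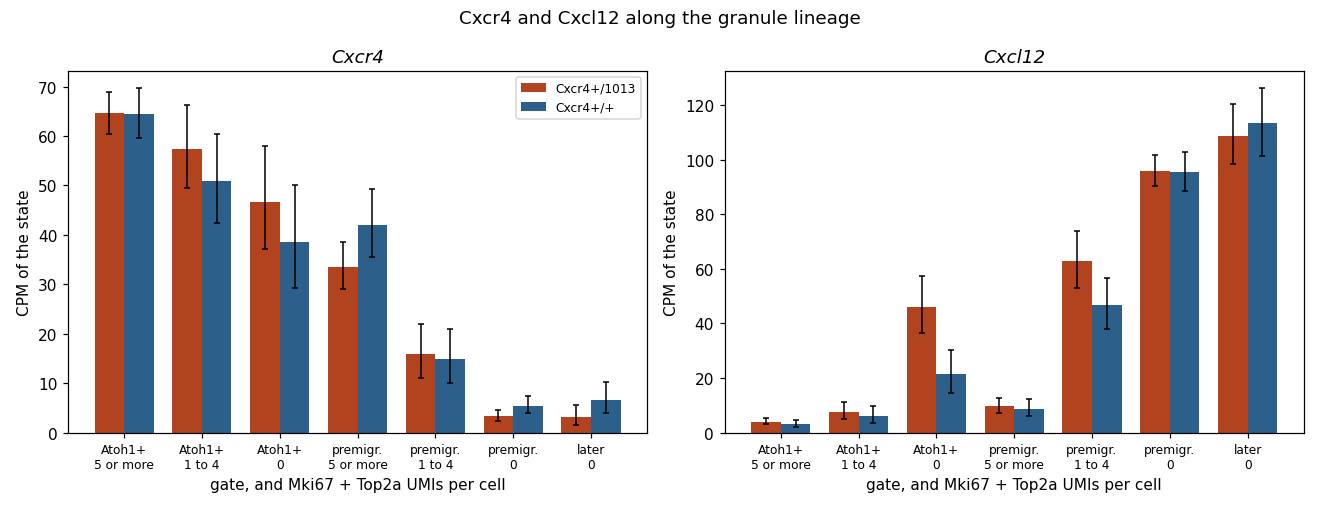
Cxcr4 (left panel) and Cxcl12 (right panel) in Atoh1-positive, premigratory and later granule lineage cells, the earlier gates split by mitotic (Mki67 and Top2a) UMIs from 5 or more to 0, in CPM of the state; bars are Cxcr4+/1013 (red, left of each pair) and Cxcr4+/+ (blue) with exact Poisson 95% intervals. Cxcr4 is highest in Atoh1-positive cells with 5 or more mitotic UMIs and lowest in later granule neurons in the mutant (3.104 CPM) and in premigratory neurons without mitotic UMIs in the control library (5.43 CPM), and Cxcl12 is lowest with 5 or more mitotic UMIs in each gate and reaches 109 CPM in mutant and 113 CPM in control later granule neurons.

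Premigratory granule neurons with Cxcr4 held Cxcl12 at a lower share than those without. Of premigratory granule neurons with a Cxcr4 UMI, 17.03% (11.9 to 23.3) in the mutant and 20.7% (14.3 to 28.4) in the control library also had Cxcl12, against 45.7% of mutant and 45.1% of control cells without Cxcr4. The cells with Cxcr4 were deeper, with a median of 19298 UMIs against 13272 in the mutant and 16240.5 against 12090 in the control library. Cells with 5 or more mitotic UMIs held 192 of the 266 mutant and 150 of the 222 control Cxcr4 UMIs of this gate. Their Cxcl12 stood at 9.61 CPM in the mutant and 8.70 CPM in the control library, against 95.9 and 95.5 CPM with 0 mitotic UMIs. The parts of depth and of mitotic state in the shares were not tested. Both genes were detected in 31 mutant and 29 control premigratory neurons, in 42 mutant and 24 control Atoh1-positive cells and in 4 mutant and 6 control later granule neurons. In Atoh1-positive cells 7.09% of those with Cxcr4 and 14.6% of those without had Cxcl12 in the mutant, and 5.45% and 9.43% in the control library. In those with 5 or more mitotic UMIs the shares lay closer, at 6.09% with and 6.70% without Cxcr4 in the mutant and 5.94% and 4.65% in the control library. In later granule neurons they were 36.4% with and 53.0% without in the mutant, and 50% and 54.9% in the control library, from 11 mutant and 12 control cells with Cxcr4.

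Bergmann glia, in contrast, often held both receptors. Cxcr4 and Ackr3 were found together in 137 of 314 mutant and 166 of 467 control Bergmann glia, that is 43.6% and 35.5%. Ackr3 was present in 61.4% (54.7 to 67.9) of mutant Bergmann glia with Cxcr4 and 45.1% (34.6 to 55.8) of those without, and in 58.9% (52.9 to 64.7) and 44.3% (37.0 to 51.8) in the control library. Cells with Cxcr4 were also deeper, with medians of 14912 against 10461 UMIs in the mutant and 13683.5 against 11600 in the control library, and the correlation of the 2 levels across cells was near 0 (r = 0.0463 in the mutant and 0.0466 in the control library, a weak value in sparse counts and no finding). In dividing astroglia 57.9% of cells with Cxcr4 and 34.4% of those without had Ackr3 in the mutant, and 70.1% and 40.4% in the control library.

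Across the 17 classes of 20 cells or more in both libraries, the pattern of each member was compared with 12021 genes by the correlation of log2(CPM + 1), computed in each library and given as a description. All genes of a class share the same cells, depth and gate. The genes most like Cxcr4 were Sox9 (r = 0.918 in the mutant and 0.894 in the control library), an astroglial and progenitor transcription factor, E2f5 (0.905 and 0.891), a cell-cycle and multiciliation factor, the centriole and spindle genes Kif24 (0.884 and 0.880), Cntrl (0.877 and 0.901) and Cdk5rap2 (0.891 and 0.871), and Psat1 (0.891 and 0.871), an enzyme of serine synthesis. These genes peaked in ependymal cells, dividing astroglia or parenchymal astrocytes. The genes most like Ackr3 peaked in Bergmann glia or parenchymal astrocytes and were Cyp26b1 (0.874 and 0.886), a retinoic acid hydroxylase, Fabp7 (0.873 and 0.898), the radial glial fatty acid binding protein, Fbxo2, Scd2, Hepacam and Rida. The likeness was weaker for Cxcl12, whose pattern joins fibroblasts with granule neurons. Its nearest genes were Copa (0.749 and 0.793), a coatomer subunit, then Lysmd3, the unnamed Gm31409, Vtn, Fkbp7 and Stra6 (0.709 and 0.775), of which all but Gm31409 peaked in fibroblasts. Cxcr4 and Ackr3 had r = 0.728 in the mutant and 0.606 in the control library, and Cxcr4 and Cxcl12 had -0.17 and -0.23.

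Within Atoh1-positive cells, those with a Cxcr4 UMI (592 mutant and 440 control cells) were set beside those without (363 mutant and 350 control cells), among 9672 genes. Of the 8 genes with the highest ratio in both libraries, Gria1, an AMPA receptor subunit also abundant in Bergmann glia, had 15.0 CPM with Cxcr4 and 1.78 CPM without in the mutant, and 24.4 CPM and 8.85 CPM in the control library. Ccnf, a cyclin of G2, had 55.1 CPM with and 28.4 CPM without in the mutant, and 49.8 and 23.6 CPM in the control library. Id3, a BMP-induced inhibitor of differentiation, had 12.97 CPM with and 5.84 CPM without in the mutant, and 25.1 and 13.7 CPM in the control library. The other 5 were Cyp26b1, the histone genes Hist1h2af and Hist1h4c, Mob3b and Sntb1. The 4 lowest ratios were those of Calb2, Zmat4, Stmn4 and Grm5. Calb2, the calcium buffer calretinin, had 7.40 CPM with Cxcr4 and 54.0 CPM without in the mutant, and 6.98 and 39.1 CPM in the control library. Markers of other cells moved with this split. Gdf10 of Bergmann glia stood at 17.2 CPM with and 5.03 CPM without in the mutant and at 20.9 and 10.3 CPM in the control library, and Eomes of unipolar brush cells at 11.1 CPM with and 25.8 CPM without in the mutant and 6.98 and 14.6 CPM in the control library. Cells with Cxcr4 also had more Mki67, at 475 CPM with and 348 CPM without in the mutant and 449 and 271 CPM in the control library, and were deeper, at medians of 19697 and 16195 UMIs in the mutant and 18734.5 and 14802 in the control library. The part of these cells and of depth in the gene differences was not tested.

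The later granule neurons with Cxcl12 (165 mutant and 146 control cells) differed from those without (150 mutant and 121 control cells) in several genes, and the 4 genes of lowest ratio among 4993 were Calb2, Ccnd2, Dcc and Snhg11. Calb2 had 2.43 CPM with Cxcl12 and 105 CPM without in the mutant, and 5.14 and 92.8 CPM in the control library. Ccnd2, a D cyclin, had 16.5 CPM with and 123 CPM without in the mutant, and 17.7 and 159 CPM in the control library. Dcc, the netrin receptor, had 228 CPM with and 1042 CPM without in the mutant, and 234 and 1569 CPM in the control library. All 4 were lower in the cells with Cxcl12 in both libraries. The 8 genes with the highest ratio were Lhfp, Cdo1, Idh1, Peak1, Prr13, Cplx2, 9630014M24Rik and Ube2ql1. Idh1, the cytosolic isocitrate dehydrogenase, had 171 CPM with and 103 CPM without in the mutant, and 174 and 106 CPM in the control library, and Cplx2, the synaptic complexin, 785 and 491 CPM in the mutant and 768 and 455 CPM in the control library. Otx2, a marker of unipolar brush cells and midbrain, was at 14.1 CPM with and 31.6 CPM without in the mutant and at 4.57 and 20.1 CPM in the control library. Eomes, also of unipolar brush cells, was detected more often with Cxcl12, in 60.6% against 44% of mutant and 57.5% against 41.3% of control cells. Its level was 114 CPM with and 148 CPM without in the mutant, and 115 and 120 CPM in the control library. The cells with Cxcl12 were deeper, with a median of 12207 UMIs against 10092 in the mutant and 12058.5 against 9990 in the control library. Shares depend on depth, and its part here was not tested. The later granule neurons without a Calb2 UMI, 296 mutant and 244 control cells, held 113 CPM of Cxcl12 in the mutant and 117 CPM in the control library, against 37.2 CPM in the 19 mutant and 75.5 CPM in the 23 control cells with Calb2.

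Astroglia of the Bergmann and parenchymal gates with Ackr3 (191 mutant and 260 control cells) were set beside those without (162 mutant and 259 control cells), among 7350 genes. Gria1 had 1209 CPM with Ackr3 and 534 CPM without in the mutant, and 1030 and 465 CPM in the control library. Egfl6, an extracellular matrix protein, had 53.1 CPM with and 14.7 CPM without in the mutant, and 42.7 and 18.4 CPM in the control library. Wif1, a secreted Wnt inhibitor, had 33.1 CPM with and 12.7 CPM without in the mutant, and 31.9 and 8.33 CPM in the control library. Syndig1, Rlbp1, Sept4, Gabra2 and the receptor kinase Kit completed the 8 genes with the highest ratio. The 4 lowest ratios belonged to the dynein Dnah11, the ciliary gene Pifo, Ecrg4 and Cacna2d3. Ecrg4 had 52.0 CPM with Ackr3 and 188 CPM without in the mutant, and 59.7 and 233 CPM in the control library. Gdf10, which the Bergmann gate used, stood at 1079 CPM with and 575 CPM without in the mutant and at 1055 and 617 CPM in the control library. Foxj1 of ependymal cells stood at 36.0 CPM with and 52.2 CPM without in the mutant and at 28.3 and 44.4 CPM in the control library. Cells with Ackr3 were deeper, at medians of 14770 and 13040 UMIs in the mutant and 13649 and 12043 in the control library. The parts of Foxj1 and of depth in these differences were not tested.

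A list of 24 genes of the CXCL12 axis, which holds the 3 members, other ligands and receptors, G protein alpha subunits, receptor kinases, arrestins, sorting factors and targets, was counted by the same fold. In the whole library 0 of 24 genes were past 1.5-fold higher and 4 lower, where 2.19% of all genes were higher and 6.92% lower, with a median log2 ratio of -0.13 against -0.01 for all genes. The 4 were Cxcl12, the matrix protease Mmp2 (0.920 CPM in the mutant and 3.37 CPM in the control library), which can cut CXCL12, Rgs16 (2.31 CPM in the mutant and 4.601 CPM in the control library), a brake on Gi signalling, and the adhesion molecule Vcam1 (8.93 CPM in the mutant and 16.2 CPM in the control library). In Atoh1-positive cells 19 genes were measured, of which Cxcl12 was higher and Vcam1, at 1.34 CPM in the mutant and 2.28 CPM in the control library, was lower. Of all genes there 3.52% were higher and 1.44% lower, and the median log2 ratio was 0.07 against 0.06 for all genes. The Vcam1 ratio of 0.585 (0.332 to 1.02) rested on 25 mutant and 32 control UMIs, and its interval includes 1. None of 17 genes in premigratory and none of 15 in later granule neurons was past the fold, where 4.78% and 6.09% of all genes measured were, and the medians were 0.09 in both, against 0.05 and 0.02 for all genes. In Bergmann glia 1 of 20 was lower, where 2.41% of all genes were, Cxcl14, a chemokine that can bind CXCR4, at 3.77 CPM in the mutant and 6.75 CPM in the control library. The Cxcl14 ratio of 0.558 (0.292 to 1.02) rested on 16 mutant and 40 control UMIs, and its interval includes 1. In fibroblasts 1 of 15 was lower, where 8.96% of all genes were, Mmp2, at 52.5 CPM in the mutant and 104 CPM in the control library. Rgs16 and Vcam1 were not past the fold in fibroblasts, at ratios of 0.739 (0.485 to 1.09) and 1.08 (0.821 to 1.39). In the control library fibroblasts held 280 of 387 Mmp2 UMIs, 241 of 528 Rgs16 UMIs and 394 of 1855 Vcam1 UMIs. The part of fibroblast number in the whole-library values was not tested.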

How the data were processed

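Single-cell 3' RNA libraries were read as deposited, 1 matrix per genotype of raw counts, that is UMIs per gene and barcode, with no normalisation by the authors. Per the submitters' processing notes, bcl2fastq 2.20.0.4222 and Cell Ranger 7.2 with mm10 made them. The minimum was 500 genes per barcode and the maximum 10% mitochondrial UMIs. The gates were minimum UMIs of marker genes per barcode, and barcodes of several gates were left out. Raw UMIs were summed per class and library and scaled to CPM. Intervals are exact: Poisson for levels, conditional binomial for ratios and Clopper-Pearson for shares, all at 95%. Thinned shares are from 1 random draw unless an average over repeated draws is named. No p-value was computed, since there was 1 library per genotype.

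Members, gates and gene lists were chosen with earlier results of these data known. The finer mitotic ranges, the splits of premigratory neurons and of Calb2, and the markers beside the split cells were added after levels had been seen. Named genes followed fixed rules: the 6 most alike in pattern (at least 500 UMIs per library), and the 8 highest and 4 lowest ratios between cells with and without a member (at least 100 UMIs), ranked by the library where the likeness or ratio was weaker, without gate, mitochondrial and ribosomal protein genes. Doublets were not removed from the main values. Scrublet (scanpy 1.11.5), set to 0.8% per 1000 barcodes, took 626 mutant and 641 control barcodes in an alternative. Other alternatives used TMM (edgeR 4.0.16) and size factors (DESeq2 1.42.0, R 4.3.3), stricter cell filters, raised gates, other state limits, cells of several gates, each sex, 6000 UMIs per cell and lower gene minimums. Gene positions are from GENCODE M21. The ratios and the 1.5-fold rule were checked on simulated counts, and the intervals were not. Python 3.11.15 with numpy 2.4.6, scipy 1.17.1 and pandas 2.3.3 was used.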

Additional observations from a re-analysis of the deposited data

Results flagged for a closer look

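Ackr3 in Bergmann glia moved in opposite directions in the 2 sexes. The ratio of the mutant to the control library was 0.916 (95% interval 0.756 to 1.11) in female cells and 1.34 (1.11 to 1.63) in male cells, with sex read from Xist and Y-linked transcripts. The intervals do not overlap and cover counting error only. The difference between the sexes was not tested, since each library holds an unknown number of animals of each sex.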

How the results depend on the processing

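No paired analysis was possible because each genotype had 1 library, and for the same reason no replicate could be left out. The 45 results were recomputed under 19 alternatives, which gave 326 values. Cxcl12 in the whole library ran at 0.410 with at least 1000 genes and at most 5% mitochondrial UMIs, 0.311 in female and 0.402 in male cells, always below 1. Ackr3 in the whole library was 0.608 in female cells, and Cxcr4 0.838 in male cells. Ackr3 in Bergmann glia was 0.916 in female and 1.34 in male cells. Cxcl12 in fibroblasts was 0.822 with TMM, 0.828 with DESeq2 factors and 0.811 with cells of several gates kept, which also gave 1.13 for Cxcl12 in later granule neurons. Of the ratios past 1.5-fold, 3 values turned: Cxcl12 in endothelial cells to 0.811 in female cells and 0.747 with cells of several gates kept, and Cxcl12 in Atoh1-positive cells to 0.988 with the same cells kept. Smaller ratios also crossed 1, down to 0.916 for Ackr3 in Bergmann glia, 0.983 for Ackr3 in ependymal cells, 0.971 for Cxcl12 in premigratory neurons, 0.995, 0.706 and 0.947 for Cxcr4 in Atoh1-positive cells, dividing astroglia and ependymal cells, and up to 1.13 for Cxcl12 in later granule neurons. Cxcr4 in dividing astroglia kept its direction in 4 of 10 settings. The cause was not tested.

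In mutant Atoh1-positive cells, Cxcl12 with 5 or more over 0 mitotic UMIs was 0.0575 without Scrublet doublets, 0.0569 in female cells, 0.0602 in male cells and 0.268 with an Atoh1 minimum of 2. Cxcr4 in the same contrast was 3.18 in female cells and 0.941 with that minimum. Premigratory over Atoh1-positive cells gave 0.164 in female and 0.267 in male mutant cells for Cxcr4, and 9.33 in male mutant cells for Cxcl12. With a minimum of 2 UMIs of Cntn2 or Nhlh1 it gave 0.171 in the mutant and 0.178 in the control library for Cxcr4.

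Shares rose with depth, as the construction requires. At 6000 UMIs per cell Cxcr4 was in 31.5% of mutant and 27.2% of control Atoh1-positive cells and in 47.7% of mutant and 41.3% of control Bergmann glia, Ackr3 in 40.1% of mutant and 37.9% of control Bergmann glia, and Cxcl12 in 43.7% of mutant and 44.5% of control later granule neurons. Genes past 1.5-fold numbered 1769 in the whole library, and 640, 624, 586, 850 and 1482 in Atoh1-positive cells, premigratory and later granule neurons, Bergmann glia and fibroblasts. From 10 UMIs these were 3414, 2078, 2160, 2075, 2474 and 3965, and from 1 UMI 6785, 6291, 6560, 7057, 6932 and 9631, since more genes of few UMIs were counted. Counts under about 50 UMIs limit the values for Ackr3 in neurons and for all members in vascular and blood cells.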

Other observations

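Cells outside the classes held part of each member. Cells that passed several gates held 604 Cxcl12 UMIs (34.0 CPM) in the mutant and 1219 (71.95 CPM) in the control library, which was 15.8% of the mutant and 13.1% of the control Cxcl12. Cells that passed no gate held Cxcl12 at 24.3 CPM in the mutant and 18.7 CPM in the control library, and Cxcr4 at 19.95 CPM in the mutant and 25.7 CPM in the control library. Scrublet took 44.4% of mutant and 48.6% of control cells of several gates and 3.64% of mutant and 3.16% of control cells of 1 gate.

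GABAergic progenitors with Ptf1a and Kirrel2 held Cxcr4, Cxcl12 and Ackr3 at low levels in both libraries. Cxcl12 had 2 UMIs (1.75 CPM) in the 84 mutant cells and 7 UMIs (7.37 CPM) in the 77 control cells, and Ackr3 was at 6.12 CPM in the mutant and 11.6 CPM in the control library.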
